A study of Homo sapiens with 15 samples.

Results

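The 10 genes described here are those by which an invasive, mesenchymal state of a tumor cell is commonly read: the cadherins CDH1 and CDH2, the transcription factors ZEB1, ZEB2, SNAI2 and TWIST1, the cytoskeletal and matrix genes VIM and FN1, and the proteases MMP2 and MMP14. They were picked by name, and every array probe whose RefSeq accession belongs to one of them was taken, which gave 15 probes. Of the 10 genes, 9 were measured well above background and could be tested among 26826 features. CDH1 was not. The cells were A2058, an established human melanoma line grown in EMEM with 10% FBS, exposed for 8 hours to NP at 3 μM, metformin (MET) at 5 mM, phenformin (PHEN) at 50 μM, DMSO or water (W). Each of these 5 groups holds 3 biological replicates, so there are 15 single-dye arrays, and all cells came from this 1 line, which has no normal counterpart among the arrays. The title of the series names NP as neopetasin, whereas the study's text calls the compound given to the same line at the same dose and time petasin. DMSO is taken as the vehicle of NP and water as that of the 2 biguanides, as the series record pairs them. The study's culture methods name water as the solvent of the 2 biguanides, but its microarray methods set all of the compounds against DMSO samples. Values against DMSO are given below where they differ.

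In epithelia, E-cadherin, the product of CDH1, holds neighbouring cells together, and its loss with a gain of N-cadherin (CDH2), vimentin (VIM) and fibronectin (FN1) is the classical picture of the epithelial-mesenchymal transition (EMT). The zinc finger proteins ZEB1, ZEB2 and SNAI2 and the basic helix-loop-helix protein TWIST1 drive this switch and bind E-box sequences, through which they repress CDH1. Melanocytes are not epithelial in origin but arise from the neural crest, where ZEB2 and SNAI2 belong to the normal program, and in melanoma a shift toward ZEB1 and TWIST1 accompanies invasive behaviour. MMP2 is a secreted gelatinase and MMP14 a membrane-anchored protease that activates it.

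All levels are log2 spot intensity minus the 75th percentile of the same array, so a level of 0 is that percentile itself, and 1 unit is a doubling. Probes bind with different strength, so a level is compared only with the same probe on other arrays. The arrays had 25804 to 45043 of 58201 probes well above background and no saturated probe. They were run on 4 slides, DMSO and NP on one pair and W, MET and PHEN on the other, with replicates 1 and 2 on one slide of a pair and replicate 3 on the other. As a check that the treatments acted, all 7 of a list of ATF4 targets, which respond to the integrated stress response and were chosen with their response known, were higher in every pair, by a median log2 fold change of 1.16 with NP, 1.11 with MET and 1.41 with PHEN. Of these 7, 4 with NP (NUPR1, JDP2, SESN2 and TRIB3), 0 with MET and 5 with PHEN (CHAC1, NUPR1, ASNS, JDP2 and SESN2) passed the threshold used below.

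Upstream sequences of 2 of the genes are shown, FN1 because its level differed most between the 2 pairs of slides, and ZEB1 because its windows are the ones among these genes that hold the E-box which factors of its own family bind. The windows are the 250 bases before a start site in RefSeq on build GRCh38.p14. Capitals mark the cAMP response element TGACGTCA in FN1 and the E-box CACCTG, or CAGGTG on the other strand, in ZEB1.
FN1, chr2:215436069-215436318, minus strand: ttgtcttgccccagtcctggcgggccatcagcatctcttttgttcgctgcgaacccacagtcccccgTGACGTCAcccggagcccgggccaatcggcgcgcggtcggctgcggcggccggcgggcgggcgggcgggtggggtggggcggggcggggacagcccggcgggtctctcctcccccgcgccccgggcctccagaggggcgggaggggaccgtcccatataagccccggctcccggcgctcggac
ZEB1, chr10:31318966-31319215, plus strand: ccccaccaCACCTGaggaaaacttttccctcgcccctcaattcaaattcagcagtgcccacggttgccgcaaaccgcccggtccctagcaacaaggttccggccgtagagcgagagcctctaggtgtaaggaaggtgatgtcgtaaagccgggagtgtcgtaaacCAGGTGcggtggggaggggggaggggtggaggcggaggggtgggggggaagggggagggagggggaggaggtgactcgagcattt
The response element in FN1 begins 183 bases before the start and is its own reverse complement, and 1.65% of 35116 windows of this length hold one. The E-boxes in this ZEB1 window begin 242 and 85 bases before the start, and another ZEB1 window holds one 57 bases before its start. Of all windows, 17.5% hold an E-box of these letters. Windows were given for 6 of the 10 genes, 13 windows in all, and neither motif was in those of CDH2, MMP14, VIM and ZEB2, which says only that these letters are not in these bases. A match is a run of letters and no evidence of binding.

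E-cadherin message was not detected in A2058 cells under any treatment. CDH1 is represented by 1 probe printed at 10 places on each array, and on 0 of 15 arrays was it well above background. Of its 150 spots, 8 were called outliers by the extraction software. Of the 142 others 0 were well above background, and of the 8 outliers 2 were, on one DMSO array and one NP array. Its mean intensity was between 1.98 and 5.32 units, under the dimmest detected probe of the same array on all 15 arrays, where that probe read 8.37 to 23.7 units. No fold change is given for CDH1, since both sides of each comparison lie in background. CDH2, in contrast, was well above background on all 15 arrays by both of its probes, and its level averaged 5.30 ± 0.18 in DMSO, 5.43 ± 0.24 in NP, 5.18 ± 0.23 in W, 5.21 ± 0.11 in MET and 5.26 ± 0.06 in PHEN (SD, n = 3 each). The ranges of neighbouring groups in this order overlapped throughout.

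**Figure D1:**
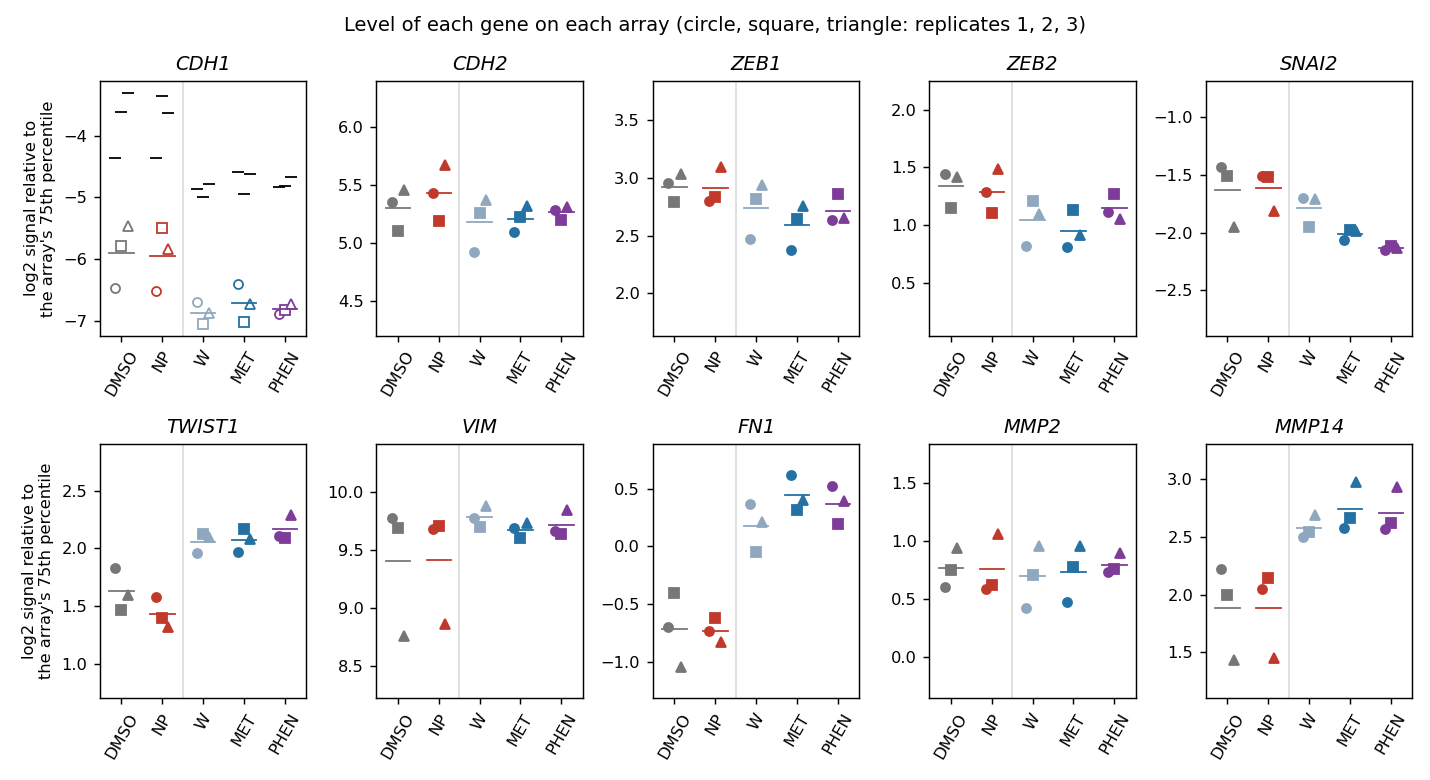
Level of each gene on each of the 15 arrays (y axis, log2 signal relative to the 75th percentile of the array, each panel with its own range) by group, with horizontal lines for group means and, for CDH1, black dashes for the dimmest detected probe of each array. Open symbols mark CDH1, which lies under the dashes on all 15 arrays, while FN1, MMP14 and TWIST1 step up between the DMSO and NP arrays and the W, MET and PHEN arrays.

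None of the 9 measurable genes was a differentially expressed gene (DEG) under any of the 3 compounds, a DEG being called at an adjusted p of at most 0.05 and a change of at least 1.5-fold. This compares with 0.0373% of all features with NP (10 of 26826), 0% with MET and 0.0261% with PHEN (7 of 26826), by limma's moderated test with Benjamini-Hochberg adjustment over all features. At an unadjusted p of at most 0.05 the count was 0 of 9 with NP, 0 with MET and 1 with PHEN, beside 4.69%, 2.46% and 2.35% of all features. By the methods' paired t-test these counts were 0, 3 and 1. Over all features it gave 778 higher and 1250 lower of 26693 with NP, and 1593 and 1546 of 26755 with MET. With PHEN it gave 704 and 695 of 26795. Of the 9 genes, the 3 with MET were ZEB1 (p of 0.0316), FN1 (0.0345) and VIM (0.0346), and the 1 with PHEN was FN1 (0.0162) in place of SNAI2. After adjustment over all features the p-values of these 4 were 0.407 to 0.902, so none passed. The 9 log2 fold changes ran from -0.20 to 0.13 with NP (median -0.01), from -0.22 to 0.26 with MET (median 0.02) and from -0.34 to 0.19 with PHEN (median 0.10), and the medians over all features were -0.01, 0.00 and -0.03. In size, the median change of the 9 genes was 0.02 with NP, 0.11 with MET and 0.10 with PHEN, beside 0.11, 0.12 and 0.10 over all features.

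The arrays also bound how large a change could have been. By the probe read for each gene in the main fit, the 95% intervals of all 9 genes lay within 2-fold in either direction for each compound. They lay within 1.5-fold for 9 genes with NP, 6 with MET and 6 with PHEN. Each interval is for 1 gene, not adjusted for the number of genes. Of these, the widest were those of VIM and MMP14, with standard errors of 0.25 and 0.24, and the narrowest that of MMP2, with 0.10. The dimmer TWIST1 probe with NP had an interval of -0.72 to 0.35 in log2, past 1.5-fold. Differences of the same sign in all 3 replicate pairs were seen for 2 genes with NP, 7 with MET and 4 with PHEN, beside 33.1%, 42.4% and 27% of all features. The pairs of MET and PHEN share their W arrays. The 2 with NP were CDH2 and TWIST1.

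Among the transcription factors, SNAI2 (Slug), a repressor of CDH1, read lower in both biguanide groups than in the W arrays that they share. It read -1.70, -1.96 and -1.71 in W, -2.07, -1.98 and -1.99 in MET, and -2.15, -2.11 and -2.13 in PHEN. Neither biguanide group overlapped with W, which held for 1 of 9 genes with each compound, beside 5.77% of features with MET and 8.13% with PHEN (6.47% with NP, where 0 of 9 did so). With PHEN the log2 fold change was -0.34 ± 0.14 (SE), a ratio of 0.789 with a 95% interval of 0.638 to 0.977, and pairs 1 to 3 gave -0.45, -0.16 and -0.42. Its unadjusted p was 0.0329 and its adjusted p 1.00 by limma. The size and this p depended on the processing. A normexp background correction gave -0.13 with an unadjusted p of 0.141, and quantile normalization -0.24 with 0.257. With dim probes kept the p was 0.0542, and by the methods' paired t-test 0.0660. Leaving out replicate 1 gave -0.29 with an unadjusted p of 0.185, and leaving out replicate 2 gave -0.43 with 0.0691. With MET the value was -0.22 ± 0.14, with -0.36, -0.03 and -0.27 in the pairs. In the other vehicle set SNAI2 read -1.43, -1.51 and -1.95 in DMSO and -1.51, -1.52 and -1.82 in NP, with groups that overlapped and a log2 fold change of 0.02 ± 0.14.

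TWIST1, an activator of CDH2 in many tumor cells, had the most negative log2 fold change of the 9 genes with NP. Its brighter probe read 1.83, 1.47 and 1.60 in DMSO and 1.58, 1.40 and 1.32 in NP, so each NP array was below its paired DMSO array, by 0.25, 0.07 and 0.28, although the groups overlapped. The log2 fold change was -0.20 ± 0.13, with a 95% interval of -0.48 to 0.08. Its dimmer probe gave -0.19 ± 0.24, also with a negative difference in all 3 pairs. Neither value passed the test (unadjusted p of 0.142 and 0.453 by limma, adjusted p 1.00). With the biguanides the brighter probe gave 0.02 ± 0.13 (MET) and 0.11 ± 0.13 (PHEN).

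ZEB1 and ZEB2, paired repressors of which ZEB2 belongs to the differentiated melanocyte, were both well above background on all 15 arrays by each of their probes. ZEB1 averaged 2.92 ± 0.12 in DMSO, 2.91 ± 0.16 in NP, 2.74 ± 0.24 in W, 2.59 ± 0.19 in MET and 2.71 ± 0.13 in PHEN (SD, n = 3 each). ZEB2 averaged 1.34 ± 0.16, 1.29 ± 0.19, 1.04 ± 0.20, 0.95 ± 0.16 and 1.15 ± 0.11 in the same order. Groups that neighbour each other in these orders overlapped for both genes. The largest change of the pair was that of ZEB1 with MET, at -0.15 ± 0.12, where the 3 pairs gave -0.10, -0.17 and -0.18, and it did not pass the test (unadjusted p of 0.254 by limma). The other probe of ZEB1 gave -0.19 with MET, and its pairs did not share a sign. The 3 probes of ZEB2 ran from -0.19 to 0.06 with NP, from -0.09 to -0.01 with MET and from 0.03 to 0.15 with PHEN. Both ZEB1 probes are designed on 1 of the 41 coding transcripts that RefSeq lists for the gene, so other isoforms were seen only as far as they share those bases.

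VIM, the intermediate filament protein of mesenchymal cells, was bright on all arrays. It read 9.77, 9.69 and 8.75 in DMSO and 9.68, 9.71 and 8.86 in NP, and 9.61 to 9.88 over the 9 arrays of the other set. The 2 low values are the arrays of DMSO and NP replicate 3, which share a slide and had the lowest 75th percentiles of the series (144 and 146 units, beside 222 to 275 on the others). Within pairs NP differed from DMSO by -0.09, 0.02 and 0.11. The fitted changes were 0.01 ± 0.25 with NP, -0.11 ± 0.25 with MET and -0.07 ± 0.25 with PHEN. With both biguanides the difference was negative in all 3 pairs.

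FN1, the matrix glycoprotein fibronectin, gave the highest value among the 9 genes with each biguanide. It read 0.37, -0.04 and 0.22 in W, 0.61, 0.31 and 0.40 in MET, and 0.53, 0.19 and 0.39 in PHEN. Each treated array was above its own W array, yet the groups overlapped, and both comparisons share their W arrays. The log2 fold change was 0.26 ± 0.16 with MET (ratio 1.20, 95% interval 0.931 to 1.54) and 0.19 ± 0.16 with PHEN (ratio 1.14, 95% interval 0.885 to 1.47), and neither passed the test (unadjusted p of 0.141 and 0.278 by limma). The methods' paired t-test gave unadjusted p-values of 0.0345 and 0.0162 for the same differences, and adjusted ones of 0.410 and 0.902. With NP it was -0.01 ± 0.16, from -0.70, -0.40 and -1.04 in DMSO and -0.73, -0.62 and -0.83 in NP. FN1 had 1 probe, on 1 of the 18 coding transcripts RefSeq lists.

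The proteases gave values close to their vehicles. MMP2 averaged 0.76 ± 0.17 in DMSO and 0.76 ± 0.26 in NP, and 0.69 ± 0.27 in W, 0.73 ± 0.25 in MET and 0.79 ± 0.09 in PHEN, so that the log2 fold changes were -0.01, 0.04 and 0.10, each ± 0.10. MMP14 read 2.22, 2.00 and 1.43 in DMSO and 2.05, 2.14 and 1.45 in NP, again with the lowest value of each group on the slide of replicate 3. In the other set it read 2.50, 2.54 and 2.69 in W, 2.58, 2.66 and 2.97 in MET, and 2.57, 2.62 and 2.93 in PHEN. Its log2 fold changes were 0.00, 0.16 and 0.13, each ± 0.24. With MET and PHEN all 3 pairs were positive, and the groups overlapped in each comparison.

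CDH2, whose product N-cadherin joins melanoma cells to fibroblasts and endothelium, gave changes of the same size. Its brighter probe gave 0.13 ± 0.13 with NP, where all 3 pairs were positive (0.08, 0.08 and 0.22), 0.03 ± 0.13 with MET and 0.08 ± 0.13 with PHEN. The other probe gave 0.08, -0.03 and 0.13.

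Whether a gene responded differently to NP than to a biguanide was tested as a difference of log2 fold changes, each against its own vehicle and each compound at its own dose. For 9 genes and 2 such differences, 0 of 18 passed (adjusted p 1.00 for each by limma, 0 of 18 at an unadjusted p of 0.05). The largest was that of SNAI2 between NP and PHEN, at 0.36 with a 95% interval of -0.08 to 0.79 and an unadjusted p of 0.0971. TWIST1 followed at -0.31 with an interval of -0.71 to 0.09. These intervals leave room for differences of more than 1.5-fold. MET and PHEN were given at doses 5000 and 50 μM, so their values stand side by side and were not compared.

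By the probe read for each gene, the mean difference between the 2 pairs of slides was larger than the change with any treatment, except for MMP2. That difference takes in the treated arrays, so changes with treatment are part of it, and the margin was small for SNAI2 and CDH2. By means of vehicle arrays alone, SNAI2 (-1.79 in W, -1.63 in DMSO) differed less than W did from MET (-2.01) or PHEN (-2.13). CDH2 (5.18 in W, 5.30 in DMSO) differed about as much as NP (5.43) did from DMSO. For FN1, MMP14 and TWIST1 the 2 sets of arrays did not overlap. FN1 averaged -0.72 over the 6 DMSO and NP arrays (-1.04 to -0.40) and 0.33 over the 9 W, MET and PHEN arrays (-0.04 to 0.61), a gap of 1.05. MMP14 differed by 0.79 and TWIST1 by 0.56, both higher in the W, MET and PHEN arrays without overlap. In all, 3 of the 9 genes were separate in this way, beside 15.6% of the 26826 features (4176, of which 2796 were higher in the W, MET and PHEN arrays). Vehicle, slide and hybridization changed together between these sets, and cannot be told apart. Of the other genes, SNAI2 differed by -0.35, VIM by 0.32, ZEB2 by -0.27, ZEB1 by -0.23, CDH2 by -0.15 and MMP2 by -0.02, all with overlap.

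Probes of 1 gene did not follow each other in that gap. A second ZEB2 probe was higher in the W, MET and PHEN arrays by 0.89 without overlap, whereas the brighter one was lower by 0.27 and the probe on a non-coding ZEB2 transcript by 0.18. The ZEB1 probes differed by -0.23 and 0.38, and the TWIST1 probes by 0.56 and -0.14. The CDH2 probes also differed in sign, at -0.15 and 0.05, both with overlap. Against DMSO, the control that the study's microarray methods name, the biguanide values took in this gap. FN1 was then higher by 1.16 with MET and 1.08 with PHEN, and MMP14 by 0.86 and 0.82 (all DEGs, adjusted p of 0.00205, 0.00377, 0.0257 and 0.0392 by limma). W minus DMSO enters these values in full.

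**Figure D2:**
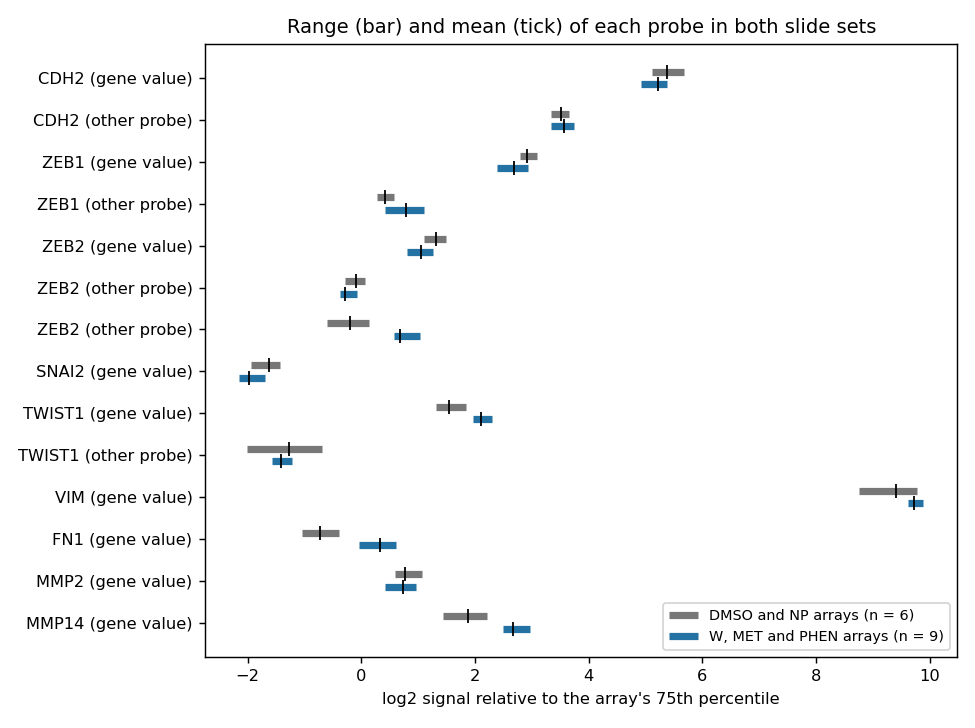
Lowest to highest level (bar) and mean (black tick) of the 14 measurable probes over the 6 DMSO and NP arrays (gray) and the 9 W, MET and PHEN arrays (blue), x axis in log2 signal relative to the 75th percentile of the array. The bars are separate for FN1, MMP14, the brighter TWIST1 probe and one of the ZEB2 probes, and the probes of CDH2, ZEB1, ZEB2 and TWIST1 shift in opposite directions.

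Lists of related genes gave the same picture of small values. No gene of the 7 lists of cadherins and catenins, other EMT factors, epithelial genes, matrix genes, proteases and inhibitors, integrins and focal adhesion, and the TGF-beta pathway was a DEG in any comparison by limma. Few features of any kind were DEGs, 10 of 26826 with NP, 0 with MET and 7 with PHEN, so this absence says little about the lists. Of cadherins and catenins, 8 of 11 were tested and 0 had an unadjusted p of at most 0.05 with any compound. Their median log2 fold changes were 0.03 (NP), -0.02 (MET) and 0.06 (PHEN). CTNND1 and JUP, which couple cadherins to the cytoskeleton, were at -0.11 and -0.08 with NP, CDH19, a cadherin of the neural crest lineage, at -0.11 with MET, and CDH3 (P-cadherin) at 0.09 with PHEN.

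Of the other EMT factors, 11 of 15 were tested, with medians of -0.07, -0.04 and -0.02 for NP, MET and PHEN. At an unadjusted p of at most 0.05 there were 0, 0 and 1. That 1 was SNAI3 with PHEN (unadjusted p of 0.0454, adjusted p 1.00). It was well above background on all 3 W arrays, at a mean of -4.52, and on 0 of 3 PHEN arrays, which makes it at least 1.19-fold lower with PHEN, set against the dimmest detected probe of each PHEN array. TCF3, which encodes the E proteins with which TWIST1 pairs, was at -0.24 ± 0.12 with NP, negative in all 3 pairs (unadjusted p of 0.0734). The Hippo pathway factors TEAD1 (NP) and TEAD4 (PHEN) were at 0.07 and 0.11, and PRRX1 and SOX9 at -0.27 and -0.20 with MET. Of 20 epithelial genes, 12 were tested, with medians of 0.00, 0.05 and -0.09. The tight junction gene CLDN4 was at -0.30 ± 0.10 with NP, with pairs of -0.35, -0.19 and -0.36 and an unadjusted p of 0.0141 (adjusted p 0.906), the 1 epithelial gene under 0.05 in the 3 comparisons. CLDN3 was at -0.17 with NP, GRHL1 and the junction scaffold TJP1 at -0.27 and -0.18 with MET, and OCLN and the splicing factor ESRP2 at 0.14 and -0.13 with PHEN.

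Of 30 matrix genes, 25 were tested, with medians of 0.03, 0.00 and 0.04. COL5A2, a chain of the fibrillar collagen V, was lower in all pairs with both biguanides, at -0.53 ± 0.13 with MET (unadjusted p of 0.00193, adjusted p 1.00) and -0.43 ± 0.13 with PHEN (0.00726, adjusted p 1.00). These comparisons share their W arrays. CCN2 and THBS1 were at 0.42 ± 0.38 and 0.24 ± 0.25 with NP, THBS2 at -0.19 with MET and the collagen cross-linking enzyme LOXL2 at 0.18 with PHEN. Of 33 proteases and inhibitors, 30 were tested, with medians of 0.00, 0.04 and 0.05. MMP17, a membrane-anchored protease, was at 0.46 ± 0.18 with MET, where the pairs gave 0.96, 0.20 and 0.22 (unadjusted p of 0.0275). Urokinase (PLAU) was at 0.32 ± 0.19 with NP and 0.27 ± 0.19 with PHEN, MMP11 at -0.32 with NP, and the inhibitor TIMP4 at 0.42 with MET and 0.51 with PHEN.

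All 29 integrin and focal adhesion genes were tested, with medians of 0.00, 0.00 and 0.02. TLN1 (talin) was at 0.27 ± 0.12 with MET and ITGB3 at 0.22 ± 0.10 with PHEN (unadjusted p of 0.0418 and 0.0419). ITGB8 and PARVA were at -0.19 and 0.16 with NP, ZYX at 0.27 with MET and ITGA3 at 0.21 with PHEN. In the TGF-beta pathway, the inducer of EMT in many epithelia, 24 of 25 genes were tested, with medians of -0.04, -0.09 and -0.04. ID3, an inhibitor of basic helix-loop-helix factors, was at -0.54 ± 0.10 with NP. It averaged 3.31 ± 0.02 in DMSO and 2.77 ± 0.04 in NP (SD, n = 3 each), and the 3 pairs gave -0.54, -0.58 and -0.50. Its unadjusted p was 0.000236, and its adjusted p of 0.138 by limma did not pass. With PHEN ID3 was at -0.23 ± 0.10 (unadjusted p of 0.0415), and ID2 was at -0.26 ± 0.12 (0.0504). TGFB3 was at -0.32 with NP, LTBP3, which binds latent TGF-beta, at 0.39 with MET and 0.29 with PHEN, and SMAD2 at -0.22 with MET.

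The line itself was checked against marker lists. Of 10 melanocyte markers, 9 were well above background on all 15 arrays, SOX10, PMEL and MITF among them, and TYR on 13. Their summed level ranged over 6.74 to 6.93 in DMSO and 6.64 to 6.90 in NP, and over 6.69 to 6.89, 6.70 to 6.88 and 6.80 to 6.88 in W, MET and PHEN (log2). Of 8 fibroblast markers, of interest because they overlap with mesenchymal genes, 5 were above background on all arrays, while COL3A1 was so on 0 and PDGFRA on 6. Their summed level was 3.84 to 4.02 in DMSO, 3.71 to 3.96 in NP, 3.63 to 3.87 in W, 3.64 to 3.84 in MET and 3.70 to 3.81 in PHEN. Of 6 keratinocyte markers, KRT5 and KRT1 were above background on 0 arrays, TP63 on 7, and KRT14, KRT10 and SFN on 15. Their summed levels were 6.87 to 7.38 over all arrays, nearly all of it KRT10, which alone read 6.83 to 7.34, beside 0.79 to 1.79 for SFN. Of 5 leukocyte markers measured, PTPRC, CD14 and ITGB2 were above background on 15 arrays, with summed levels of 0.27 to 0.83. No gene of these 4 lists was a DEG by limma, and none had an unadjusted p of at most 0.05.

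The genes that varied most like 8 of the 9 over the 15 arrays, after each slide was centered, were found among 13869 named genes. For TWIST1 these were EFTUD2 (Pearson r of 0.96) and UBE2NL (0.93), and for MMP2 CTTN (0.96), which encodes cortactin, and VMA22 (0.95). ZEB1 varied most like MGST1 (0.97) and MRPL3 (0.97), and ZEB2 most like HBS1L (0.96) and GHR (0.96). The nearest to CDH2 were SEMA3C and C22orf39 (both 0.96) and to MMP14 ATPAF2 and HLA-J (both 0.92). VIM, with DOCK5 and PRAMEF5 (both 0.86), and SNAI2, with CIBAR1P2 (0.87) and TP53INP1 (0.86), had less close neighbours. These values describe 15 arrays that share slides, replicate runs and scaling, and carry no test.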

How the data were processed

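The authors hybridized RNA of A2058 cells to Agilent SurePrint G3 arrays with Cy3 and extracted spot intensities with Feature Extraction (version 10.7.3.1 per the file headers, 9.1 per the submitters' processing notes). The deposited intensity is background-subtracted and not normalized between arrays. The authors also deposited a log2 table, scaled by the 75th percentile and floored at 4, used as an alternative.

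Here control spots were removed, outlier spots set to missing and spots of a probe averaged, and the log2 75th percentile of each array was subtracted. A probe was kept if some group had it well above background on each of its 3 arrays, and a gene was read by its brightest such probe, given values on 8 arrays or more. RefSeq accessions gave a symbol for 31104 of 33080 probes. limma 3.58.1 (R 4.3.3, statmod 1.5.0) fitted the 5 groups with the replicate number as a block over all 15 arrays, two-sided, with Benjamini-Hochberg adjustment. The block rests on the labels' numbers: deviations of same-numbered arrays correlated at 0.62 to 0.84 (NP), 0.69 to 0.84 (MET) and 0.33 to 0.49 (PHEN). Unlike-numbered treated and vehicle arrays on the same slide correlated at 0.42 and 0.46 (NP), -0.27 and -0.31 (MET), and -0.00026 and -0.056 (PHEN). These correlations were taken within a vehicle set, whereas the block is 1 effect per replicate number shared by both sets. Standard errors depended on this choice. For TWIST1 with NP the standard error was 0.13 (unadjusted p of 0.142 by limma), and 0.076 (0.0293) with the block within each set. For VIM with MET it was 0.25, and 0.021 by the methods' paired t-test. From each list, genes named were the DEGs and the 2 largest changes per comparison that were detected throughout and of 1 sign in all pairs, to which those at an unadjusted p of at most 0.05 were added after their values were seen. Results for 2 genes are not reported here, and ATF4 targets and cell type markers are given by list. Summed marker levels are log2 of summed linear signals. Genes and lists were chosen with earlier results of these data known. The fit was tested on data simulated from the same model, without spread particular to a vehicle set or a slide. The number of arrays limits the precision. Python 3.11.15, pandas 2.3.3, numpy 2.4.6 and matplotlib 3.10.9 were used.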

Additional observations from a re-analysis of the deposited data

How the results depend on the processing

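That none of the 9 genes was a DEG held under all alternatives except DMSO in place of water. Few features of any kind were DEGs under those alternatives, 0 to 70 with NP, 0 to 3 with MET and 0 to 16 with PHEN. With arrays left out it was 0 over all features for each compound, so this absence says little about the 9 genes. Of 477 refits of their 27 log2 fold changes, 440 kept direction and call, 30 turned sign and 7 passed the test, all 7 with DMSO in place of water. With NP, the replicate block within each vehicle set gave 1 gene at an unadjusted p of 0.05 (TWIST1), beside 1529 higher and 1552 lower of 26826 features. With MET that count of 0 became 1 with a slide term, slide as a random block or only the groups compared, 2 with the block within each set, 3 with the methods' paired t-test and 6 against DMSO. Features at this p rose too, from 659 to 1047 higher and 926 lower with a slide term, and 716 and 613 with slide as a random block. They were 2329 and 1689 with only the groups compared, 1268 and 1225 with the block within each set, and 10732 in all against DMSO. With PHEN the count of 1 gene became 0 under normexp, quantile normalization or no filter, and 4 against DMSO, beside 8941 of 26826 features. The count was 0 to 1 leaving out arrays (0 without replicate 1 or 2). By the methods' paired t-test it stayed 1, but was FN1 in place of SNAI2 (p of 0.0660). Without the replicate block no count for the 9 genes moved (0, 0 and 1).

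Against DMSO, 2 of the 9 genes were DEGs with each biguanide and 3 (MET) and 4 (PHEN) passed the adjusted p: TWIST1 at 0.44 and 0.53, MMP14 at 0.86 and 0.82, FN1 at 1.16 and 1.08, and SNAI2 with PHEN at -0.50. The median with MET became -0.029. All features then held 4568 (MET) and 2761 (PHEN) DEGs. Signs turned for MET at CDH2 (-0.093), VIM (0.27) and MMP2 (-0.029), and for PHEN at CDH2 (-0.040), VIM (0.31) and ZEB2 (-0.19). DEGs were then 4 and 1 of other EMT factors, 4 and 2 of epithelial genes, 4 and 3 of matrix genes, 4 and 2 of proteases and inhibitors, 7 and 5 of integrins and focal adhesion, 6 and 3 of the TGF-beta pathway, and 3 and 3 of ATF4 targets for MET and PHEN. W minus DMSO enters these values by construction.

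The mean of a gene's probes turned CDH2 (-0.0018) and TWIST1 (-0.0022) with MET, ZEB1 (0.013) with PHEN, and the differences NP minus MET of ZEB2 (-0.0039) and NP minus PHEN of CDH2 (-0.0022) and ZEB1 (-0.053). Normexp turned MMP14 with NP (0.014), CDH2 with MET (-0.00046) and the difference NP minus PHEN of ZEB1 (-0.0043). Quantile normalization turned MMP14 (0.020), SNAI2 (-0.0080) and VIM (-0.0093) with NP. Leaving out arrays, values with NP ran over -0.13 to 0.062 (VIM), -0.055 to 0.053 (ZEB1), -0.10 to 0.080 (ZEB2), -0.042 to 0.063 (SNAI2), -0.069 to 0.062 (MMP2), -0.14 to 0.083 (MMP14) and -0.12 to 0.088 (FN1), with MET over -0.043 to 0.069 (CDH2), and with PHEN over -0.059 to 0.15 (CDH2), -0.12 to 0.10 (ZEB1) and -0.0094 to 0.18 (MMP2). Differences NP minus MET ran over -0.017 to 0.18 (VIM), -0.056 to 0.17 (ZEB2) and -0.13 to 0.027 (MMP2), and NP minus PHEN over -0.071 to 0.21 (CDH2), -0.058 to 0.11 (VIM), -0.15 to 0.17 (ZEB1), -0.28 to 0.0050 (ZEB2) and -0.25 to 0.0068 (MMP2). The median of the 9 ran over -0.043 to 0.031 (MET) and -0.0094 to 0.13 (PHEN). These values are small against their standard errors, and what turned their signs was not tested.

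DEGs among the 7 ATF4 targets with NP (4) became 7 with a slide term, slide as a random block or the block within each set, and 0 without the replicate block, without the filter, with only the groups compared or by the methods' paired t-test. With MET (0) they became 1 with a slide term, 1 with the block within each set and 2 with slide as a random block. With PHEN (5) they became 0 without the replicate block, without the filter, with only the groups compared or by the methods' paired t-test. Leaving out any replicate number or NP replicate 2 gave 0 DEGs among them with each compound. Over all features, DEGs ran from 0 to 70 (NP), 0 to 3 (MET) and 0 to 16 (PHEN) apart from the change of vehicle, and the 6 higher and 1 lower with PHEN became 6 and 0 under quantile normalization.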
